A study of Mus musculus with 40 samples.

Results

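Dkk3, which encodes a secreted dickkopf protein, and 9 other genes that modulate or report Wnt signaling were followed in mouse muscle in which the kinase complex mTORC1 was kept active. The 10 genes were taken by name out of 22844 in the table: the secreted inhibitor genes Dkk2, Dkk3, Sfrp1, Sfrp2, Sfrp4 and Frzb, the ligand genes Wnt4 and Wnt9a, the potentiator gene Rspo3 and the target gene Axin2. Which measured values the genes were chosen by is not recorded. An earlier look at these data had named Dkk3 for its differences in vehicle-treated mice, between genotypes at 9 months and between ages in CON, and these are assumed to be the values that chose it. Differences between genotypes and ages in vehicle-treated mice are therefore given as a description without a test. All 10 passed the filter on low counts, although Sfrp2 reached 1 CPM (the count per library size, normalized between libraries) in only 8 of the 40 libraries.

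The muscle was the whole extensor digitorum longus (EDL), a fast hindlimb muscle. TSCmKO mice lack Tsc1, an inhibitor of mTORC1, in skeletal muscle fibers, and the promoter that drives their Cre recombinase is not given in the sources used here. CON mice are littermates carrying the floxed alleles (Tsc1fl/fl), and every mouse has the strain label Tsc1tm1Djk/J. Mice were 3 or 9 months old and received vehicle or the mTORC1 inhibitor rapamycin (RM) by intraperitoneal injection for 3 days, at 4 mg per kg per the labels, a dose that the study's text states differently. This gave the groups 3mCON, 3mCON+RM, 3mTSCmKO, 3mTSCmKO+RM, 9mCON, 9mCON+RM, 9mTSCmKO and 9mTSCmKO+RM, each with 5 mice and 1 library per mouse. The sex of the mice is not given in the sources used here. Rapamycin acted on the whole mouse, whereas Tsc1 was deleted in fibers alone.

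Wnt proteins are secreted lipid-modified ligands that bind Frizzled receptors together with the co-receptors LRP5 and LRP6, which stabilizes beta-catenin and lets it switch on targets with TCF and LEF factors. The pathway is restrained outside the cell by proteins that capture the ligand (the secreted Frizzled-related proteins Sfrp1, Sfrp2, Sfrp4 and Frzb) or block the co-receptors (dickkopf proteins such as Dkk2), and it is enhanced by R-spondins, which protect Frizzled receptors from turnover. Dkk3 is the divergent dickkopf protein, which does not act through the co-receptors in the usual way and whose effect on Wnt signaling depends on the setting. In muscle, Wnt signaling is known for its part in development, regeneration and the neuromuscular synapse.

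On the GRCm38 build, Dkk3 (ENSMUSG00000030772) lies at chr7:112116017-112159057 on the minus strand, Dkk2 (ENSMUSG00000028031) at chr3:132085292-132180304 on the plus strand and Frzb (ENSMUSG00000027004) at chr2:80411970-80447625 on the minus strand. Sfrp1 (ENSMUSG00000031548) lies at chr8:23411502-23449632, Sfrp2 (ENSMUSG00000027996) at chr3:83766321-83774316 and Sfrp4 (ENSMUSG00000021319) at chr13:19623104-19632994, all on the plus strand. The plus strand also holds Wnt4 (ENSMUSG00000036856) at chr4:137277489-137299726, Wnt9a (ENSMUSG00000000126) at chr11:59306928-59333552 and Axin2 (ENSMUSG00000000142) at chr11:108920349-108950783. Rspo3 (ENSMUSG00000019880) lies on the minus strand at chr10:29452416-29535867. Stretches of 31 bases shared with other protein-coding genes made up 5.5% of the Wnt4 transcripts, under 1% of those of Dkk2, Sfrp1 and Sfrp4, and 0% of those of the other 6 genes.

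The promoters of Axin2 and Frzb are shown as sequence, Axin2 because it is the textbook beta-catenin target and Frzb because its window alone held the searched motif. RefSeq promoter entries matched 6 of the 10 genes, the others being Dkk3, Sfrp1, Sfrp4 and Rspo3. The letters CTTTGA, a form of the core that TCF and LEF factors recognize, were searched on both strands in the 250 bases before each RefSeq start. Other forms of the core were not searched. They stood in 13.8% of all such windows of the genome (4544 of 32851) and, among the 6 windows, in that of Frzb. The first run below is the Axin2 window (chr11:108920099-108920348, plus strand, GC content 69.2%), which does not hold these letters on either strand. The second is the stretch of 30 bases around the match of Frzb (chr2:80447474-80447503, minus strand, GRCm38.p6), with the match, which reads CTTTGA on the other strand, in capitals; GENCODE places this stretch inside a Frzb exon. A match is a description of the letters, not of factor binding.
Axin2: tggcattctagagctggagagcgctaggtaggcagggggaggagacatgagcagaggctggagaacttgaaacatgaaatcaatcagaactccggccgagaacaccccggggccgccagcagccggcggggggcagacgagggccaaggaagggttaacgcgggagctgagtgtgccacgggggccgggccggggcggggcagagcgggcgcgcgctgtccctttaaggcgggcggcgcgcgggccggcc
Frzb: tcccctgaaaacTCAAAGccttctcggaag

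Depth, deletion and tissue were checked first. Libraries held 8883870 to 35224669 counts. Tsc1 ranged from 51.3 to 133.7 CPM in CON libraries and from 17.8 to 35.8 CPM in TSCmKO libraries, without overlap. Markers of muscle fibers were abundant in every library (the summed level of 11 genes was 106800 to 209000 CPM). Age could not be told apart from library preparation, because the insert size that the labels state ran from 175 to 239 nt in the younger mice and from 223 to 308 nt in the older ones (19 of 20 with a value, 9mTSCmKO+RM replicate 5 without). In bulk muscle, fewer cells of a type and less RNA per cell also cannot be told apart.

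Dkk3 was high in the muscle of CON mice, higher still at the later age, and low in that of TSCmKO mice at both ages. It was at 113.5, 127, 53.25, 115 and 111 CPM in the 5 libraries of 3mCON and at 358, 332, 406, 379 and 350 CPM in those of 9mCON. In 3mTSCmKO it was at 11.4, 12.1, 8.69, 3.55 and 12.2 CPM, and in 9mTSCmKO at 3.75, 3.71, 5.14, 3.06 and 4.94 CPM. The ranges of CON and TSCmKO did not overlap at either age, and those of 3mCON and 9mCON did not overlap either, whereas the TSCmKO ranges overlapped between ages. The log2 fold change of TSCmKO over CON was -3.45 ± 0.29 (SE) at 3 months and -6.46 ± 0.34 at 9 months. The log2 fold change from 3 to 9 months was 1.81 ± 0.27 in CON and -1.20 ± 0.29 in TSCmKO, and the genotype difference was larger at 9 months (interaction -3.01 ± 0.40 on the log2 scale). With insert size as a term, the age difference in CON was 1.897 ± 0.32 and that in TSCmKO -1.08 ± 0.40.

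**Figure D1:**
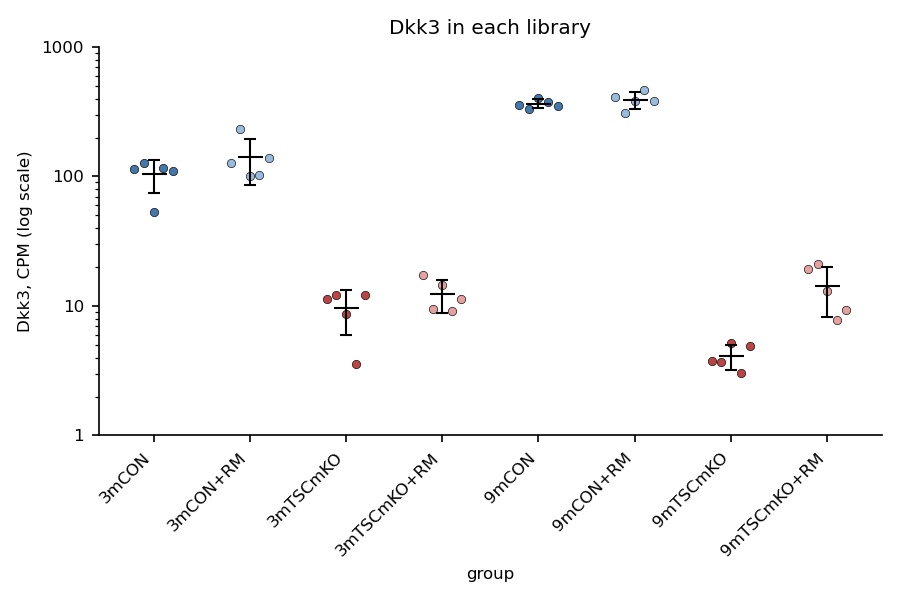
Dkk3 level in CPM (log axis) in each of the 40 libraries, by group; points are mice and bars are the mean ± SD of 5. All CON libraries lie at or above 53.25 CPM and all TSCmKO libraries at or below 21.2 CPM, and 9mTSCmKO+RM lies above 9mTSCmKO.

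The rapamycin-treated mice are other mice than those for which Dkk3 had been named earlier, but since the values that chose the genes are not recorded, the tests below are not shown to be independent of that choice. Dkk3 was at 126, 235, 101, 102 and 138.5 CPM in 3mCON+RM and at 408, 311, 384, 468 and 379.5 CPM in 9mCON+RM. It was at 17.4, 9.41, 14.4, 9.15 and 11.3 CPM in 3mTSCmKO+RM and at 19.4, 21.2, 13.1, 7.86 and 9.39 CPM in 9mTSCmKO+RM. The genotype and age differences were thus present again under rapamycin: no TSCmKO+RM library reached a CON+RM library, and no 3mCON+RM library reached one of 9mCON+RM. Dkk3 was lower in TSCmKO+RM than in CON+RM at both ages (log2 fold change -4.78 ± 0.31, adjusted p = 2.6e-14 in the older mice and -3.51 ± 0.29, adjusted p = 4.25e-11 in the younger ones), and higher at 9 than at 3 months in CON+RM (1.47 ± 0.26, adjusted p = 0.000202, edgeR quasi-likelihood test for all tests of the 10 genes). With insert size as a term, the last difference was 1.57 ± 0.34 (adjusted p = 0.00288).

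Within TSCmKO muscle, Dkk3 was higher after 3 days of rapamycin at 9 months. Every library of 9mTSCmKO+RM (7.86 to 21.2 CPM) was above every library of 9mTSCmKO (3.06 to 5.14 CPM), with a log2 fold change of 1.78 ± 0.29. No test is given, because the low level of 9mTSCmKO is among the values assumed to have chosen Dkk3. The other 9 genes had not been named by their values in that earlier look, but their rapamycin comparisons share the same vehicle libraries, so that the tests given for them are not shown to be independent of how they were chosen. The other rapamycin differences were 0.37 ± 0.28 in 3mTSCmKO, 0.10 ± 0.26 in 9mCON and 0.44 ± 0.26 in 3mCON, and those groups overlapped. The rapamycin difference of TSCmKO minus that of CON was 1.68 ± 0.39 at 9 months and -0.06 at 3 months, for the same reason without a test. The level reached in 9mTSCmKO+RM remained far from that of CON, with a mean of 14.2 ± 5.93 CPM (SD, n = 5) against 390.0 ± 56.5 CPM in 9mCON+RM. Muscle fiber markers also moved between the 9mTSCmKO and 9mTSCmKO+RM groups, with 5 of 11 rising, 1 falling and summed levels of 106900 to 126000 CPM under vehicle and 150600 to 189900 CPM under rapamycin. In addition, 4 of 9 mural and 2 of 6 satellite cell markers rose and 2 of 9 macrophage markers fell. The summed satellite cell markers were 27.3 to 36.9 CPM under vehicle and 47.8 to 56.3 CPM under rapamycin. The part of these markers in the result was not tested.

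In the order of group means, 9mCON+RM (390.0 CPM) and 9mCON (365.0 CPM) came first, then 3mCON+RM (140.6 CPM) and 3mCON (104.0 CPM). They were followed by 9mTSCmKO+RM (14.2 CPM), 3mTSCmKO+RM (12.3 CPM), 3mTSCmKO (9.59 CPM) and 9mTSCmKO (4.12 CPM). Neighbors overlapped in their ranges except at 2 steps, from 9mCON to 3mCON+RM and from 3mCON to 9mTSCmKO+RM. The spread was also uneven among mice. In 3mCON, replicate 3 had 53.25 CPM against 110.7 to 127.2 CPM in the others, and in the same library the summed muscle fiber markers were 126700 CPM against 149100 to 162900 CPM and those of Schwann cells 315.1 CPM against 152.7 to 233.2 CPM. In 3mCON+RM, replicate 2 had 234.6 CPM against 101.3 to 138.5 CPM, and its summed markers were lower than in the others for fibroblasts (1726 CPM against 3458 to 4069 CPM), tenocytes (101.7 CPM against 510.1 to 729.5 CPM) and macrophages (44.0 CPM against 91.4 to 117.4 CPM). The part of these markers in the Dkk3 values was not tested.

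Dkk2, a dickkopf inhibitor that binds the Wnt co-receptors, had 1 library, 9mTSCmKO replicate 1, on which its differences between genotypes and with rapamycin at 9 months rested. It was at 27.3, 11.2, 17.6, 13.7 and 9.14 CPM in 9mCON and at 78.3, 14.2, 13.7, 15.4 and 24.4 CPM in 9mTSCmKO. The 2 groups overlapped, and replicate 1 of the latter stood far above the other 9 libraries. The log2 fold change of TSCmKO over CON was 0.89 ± 0.34 at 9 months and 0.10 without that library. At 3 months Dkk2 was at 12.2, 11.01, 20.2, 11.5 and 9.04 CPM in 3mCON and at 5.73, 8.75, 7.25, 13.8 and 8.67 CPM in 3mTSCmKO, again with overlap. From 3 to 9 months in TSCmKO the log2 fold change was 1.71 ± 0.35, and 0.93 ± 0.26 without 9mTSCmKO replicate 1. In 9mTSCmKO+RM it was at 12.99, 12.9, 16.5, 18.1 and 14.2 CPM, lower than in 9mTSCmKO (log2 fold change -0.97 ± 0.35, adjusted p = 0.0288). Without 9mTSCmKO replicate 1 this became -0.21 (adjusted p = 0.603), and the call was also lost without 9mTSCmKO+RM replicate 1 (-0.93, adjusted p = 0.0547), 2 (-0.92, adjusted p = 0.0636) or 5 (-0.95, adjusted p = 0.0526). The call was lost as well without a filter (adjusted p = 0.0569), with a replicate block (0.0574), with insert size as a term (0.0594) and in a fit of only the groups compared (0.113). With limma it was lost on log2(TPM + 1) (adjusted p = 0.153) and on log2(TPM + 0.1) (0.171). In 9mTSCmKO replicate 1 the summed Schwann cell markers were 288.8 CPM against 107.9 to 192.0 CPM in the other 4, and the adipocyte markers 631.5 CPM against 207.3 to 460.5 CPM, whose part was not tested.

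Frzb (secreted Frizzled-related protein 3), which captures Wnt ligands outside the cell, fell with rapamycin in TSCmKO muscle at 9 months. It was at 9.88, 9.12, 11.1, 10.3 and 13.0 CPM in 9mTSCmKO and at 6.03, 3.52, 3.21, 3.31 and 3.60 CPM in 9mTSCmKO+RM. The groups did not overlap, and the log2 fold change was -1.46 ± 0.26 (adjusted p = 4.2e-05). In the same comparison 5 of 11 muscle fiber and 4 of 9 mural cell markers rose and 1 of 15 fibroblast and 2 of 9 macrophage markers fell, and their part in the Frzb value was not tested. In 9mCON it was at 9.09, 11.9, 14.2, 15.6 and 20.4 CPM and in 9mCON+RM at 11.4, 8.12, 7.74, 7.99 and 8.30 CPM, a difference of -0.71 ± 0.25 (adjusted p = 0.0552). This value lay at the threshold: it passed under 5 alternatives of scaling, filter or tool, and without 9mCON replicate 1 (-0.84, adjusted p = 0.0325), 9mCON replicate 2 (-0.77, adjusted p = 0.0478) or 9mCON+RM replicate 1 (-0.81, adjusted p = 0.0449). In the same comparison 14 of 15 fibroblast, 8 of 11 tenocyte and 8 of 9 macrophage markers fell, and their part in the Frzb value was not tested. Under rapamycin at 9 months Frzb was lower in TSCmKO than in CON (-1.16 ± 0.27, adjusted p = 0.00118), again without overlap.

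At 3 months, the Frzb levels were 30.6, 21.4, 11.8, 19.7 and 16.6 CPM in 3mCON and 4.74, 6.92, 9.25, 19.1 and 14.6 CPM in 3mTSCmKO. These ranges overlapped, with a log2 fold change of TSCmKO over CON of -0.85 ± 0.24, against -0.41 ± 0.24 at 9 months. Frzb was at 12.3, 12.4, 11.2, 11.9 and 9.99 CPM in 3mCON+RM and at 9.18, 6.89, 6.96, 6.87 and 6.997 CPM in 3mTSCmKO+RM. The mean was thus lower under rapamycin in all 4 genotype and age combinations, but the differences at 3 months did not pass the test (-0.79 ± 0.24, adjusted p = 0.151 in CON and -0.59 ± 0.25, adjusted p = 0.0793 in TSCmKO). The latter passed without 3mTSCmKO replicate 1 (-0.77, adjusted p = 0.0131) or 2 (-0.71, adjusted p = 0.0374). In 3 of the 4 rapamycin groups, replicate 1 had the highest Frzb level.

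Sfrp1, a Frizzled-related inhibitor, was low throughout, with 2 to 137 counts per library. It was at 2.89, 1.66, 2.92, 2.57 and 3.62 CPM in 9mCON and at 0.104, 1.06, 1.23, 0.635 and 0.787 CPM in 9mTSCmKO. These ranges did not overlap, and the log2 fold change was -1.85 ± 0.39. At 3 months the means were 2.19 CPM in 3mCON (1.94 to 2.64 CPM) and 1.81 CPM in 3mTSCmKO (1.39 to 2.04 CPM). In 9mCON+RM Sfrp1 was at 0.203, 0.977, 2.10, 1.63 and 0.203 CPM, lower than in 9mCON (-1.45 ± 0.39, adjusted p = 0.0108), with 1 library of 9mCON inside the range of 9mCON+RM. In 9mTSCmKO+RM it was at 0.782, 0.980, 2.01, 1.38 and 1.28 CPM, which did not differ from 9mTSCmKO past the threshold (0.77 ± 0.41, adjusted p = 0.145). The response to rapamycin at 9 months differed between the genotypes (interaction 2.23 ± 0.56, adjusted p = 0.0153), but neither this call nor that in 9mCON was kept in a fit of only the groups compared (adjusted p = 0.127 and 0.11). Under rapamycin the genotypes themselves did not differ past the threshold at 9 months (0.38, adjusted p = 0.583), and Sfrp1 was lower in 9mCON+RM than in 3mCON+RM (-1.59 ± 0.39, adjusted p = 0.00413), where it was at 2.89, 1.46, 3.93, 3.91 and 2.96 CPM.

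Sfrp4, the Frizzled-related inhibitor known from bone and fat, was also lower with rapamycin in 9mCON. It was at 3.43, 2.49, 1.62, 1.53 and 2.58 CPM in 9mCON and at 0.676, 0.514, 1.38, 1.29 and 0.810 CPM in 9mCON+RM. The groups did not overlap, and the difference was -1.36 ± 0.41 on the log2 scale (adjusted p = 0.0227). The call was lost without 9mCON replicate 1 (-1.17, adjusted p = 0.0837) or without 9mCON+RM replicate 1 (-1.25, adjusted p = 0.0599), 2 (-1.18, adjusted p = 0.0835) or 5 (-1.32, adjusted p = 0.0558). It was also lost with limma on log2(TPM + 1) (-0.70, adjusted p = 0.0517). In TSCmKO muscle the differences with rapamycin were -0.56 in 9mTSCmKO (adjusted p = 0.304) and 0.54 in 3mTSCmKO (adjusted p = 0.299), neither past the threshold. Sfrp4 was lower in 9mCON+RM than in 3mCON+RM (-1.34 ± 0.41, adjusted p = 0.0219), where it was at 3.23, 1.04, 2.92, 1.60 and 2.96 CPM and overlapped with 9mCON+RM. That call was lost with insert size as a term (-1.45 ± 0.51, adjusted p = 0.0653) and without 3mCON+RM replicate 1 (-1.20, adjusted p = 0.0615) or 5 (-1.22, adjusted p = 0.068) or 9mCON+RM replicate 1 (-1.24, adjusted p = 0.0634), 2 (-1.16, adjusted p = 0.0736) or 5 (-1.30, adjusted p = 0.0502). Between genotypes under vehicle, the log2 fold changes of TSCmKO over CON were -0.90 at 3 months and -0.69 at 9 months, and the ranges overlapped.

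Markers of connective tissue cells moved in the same comparisons as Sfrp1 and Sfrp4. With rapamycin in 9mCON, 14 of 15 tested fibroblast markers, 8 of 11 tenocyte markers and 8 of 9 macrophage markers fell, and none rose (edgeR, adjusted p under 0.05). The summed fibroblast markers were 1644 to 3261 CPM in 9mCON and 333.4 to 1308 CPM in 9mCON+RM. Has1 was at 0 in all 5 libraries of the latter, but its mean over all libraries was only 0.092 CPM, so nothing is read from it. The summed tenocyte markers were 98.8 to 552.6 CPM in 9mCON and 36.0 to 79.8 CPM in 9mCON+RM, and the summed macrophage markers 45.3 to 132.9 CPM and 11.1 to 33.1 CPM. The highest 9mCON value of each of these sums came from replicate 5, with 552.6 CPM of tenocyte markers against 98.8 to 173.4 CPM in the others. That library also had the highest 9mCON level of Frzb (20.4 CPM), Sfrp1 (3.62 CPM) and Axin2 (12.03 CPM), but not of Sfrp4. Between 3mCON+RM and 9mCON+RM, 14 of the 15 fibroblast, 9 of the 11 tenocyte and 8 of the 9 macrophage markers were lower at 9 months. In 9mTSCmKO against 9mCON, 11 fibroblast markers were lower and 1 higher, and the summed level in 9mTSCmKO was 578.9 to 1600 CPM. With rapamycin in 9mTSCmKO, where neither Sfrp1 nor Sfrp4 passed the test, 1 fibroblast, 1 tenocyte and 2 macrophage markers fell. The part of these cells in the Sfrp1 and Sfrp4 values was not tested.

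Sfrp2, a further Frizzled-related inhibitor, was close to the limit of detection and is given as counts summed over the 5 libraries of a group. At 3 months it had 72 counts in 3mCON, 62 in 3mTSCmKO and, under rapamycin, 65 in CON and 95 in TSCmKO. At 9 months it had 12 counts in 9mCON, 70 in 9mTSCmKO and, under rapamycin, 4 in CON and 2 in TSCmKO. In CPM, 9mTSCmKO was at 0, 1.06, 1.84, 0.635 and 0.350 and 9mTSCmKO+RM at 0, 0, 0.0544, 0 and 0.0610, so that a vehicle library without any count overlapped with the rapamycin group. Of the 70 counts, 33 came from 9mTSCmKO replicate 3. The ratio of the summed levels was 32.5 (95% exact counting interval 8.65 to 273.0, covering counting error only), or 21.2 (5.47 to 182.0) without that library, and the fitted test gave an adjusted p of 0.000598. In vehicle-treated mice the ratio of 9mTSCmKO to 9mCON was 5.34, or 3.49 without 9mTSCmKO replicate 3, and that of 3mCON to 9mCON 4.99. These ratios describe pooled counts and leave out the variation between mice. Of the 72 counts of 3mCON, 38 came from replicate 3 and 23 from replicate 1, with 0 in replicate 5. Under rapamycin, the ratio of 3mCON+RM to 9mCON+RM was 14.1 (5.25 to 53.3), with an adjusted p of 0.00937 that became 0.0596 with insert size as a term. In that comparison 14 of 15 fibroblast, 9 of 11 tenocyte and 8 of 9 macrophage markers were also lower at 9 months, as given above, and their part in the Sfrp2 value was not tested.

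Wnt4, a ligand known from kidney and neuromuscular development and the more abundant of the pair of ligands followed, was lower in TSCmKO muscle at both ages. It was at 34.7, 35.9, 33.1, 42.1 and 38.5 CPM in 3mCON and at 10.7, 14.8, 14.4, 13.5 and 13.9 CPM in 3mTSCmKO. At 9 months it was at 69.4, 45.4, 47.8, 42.2 and 36.3 CPM in 9mCON and at 41.6, 20.5, 18.2, 17.4 and 27.4 CPM in 9mTSCmKO. The genotypes did not overlap at 3 months (log2 fold change -1.45 ± 0.19), while at 9 months 1 library of 9mTSCmKO, replicate 1, reached into the CON range (-0.95 ± 0.18). Under rapamycin the levels were 26.7, 37.6, 41.9, 43.7 and 30.2 CPM in 3mCON+RM and 15.4, 14.2, 8.90, 14.4 and 11.4 CPM in 3mTSCmKO+RM. They were 45.1, 55.7, 45.8, 43.6 and 55.6 CPM in 9mCON+RM and 19.8, 13.9, 14.5, 20.2 and 17.2 CPM in 9mTSCmKO+RM. Wnt4 was lower in TSCmKO+RM than in CON+RM by a log2 fold change of -1.48 ± 0.19 in the younger mice (adjusted p = 4.4e-07) and of -1.53 ± 0.19 in the older ones (adjusted p = 7.67e-08), with no overlap at either age.

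With rapamycin in 9mTSCmKO, Wnt4 fell further, by 0.55 ± 0.19 on the log2 scale (adjusted p = 0.0208). That call was lost without 9mTSCmKO replicate 1 (-0.31, adjusted p = 0.169) and without 9mTSCmKO+RM replicate 2 (-0.48, adjusted p = 0.064) or 3 (-0.50, adjusted p = 0.0584), as well as in a fit of only the groups compared (-0.56, adjusted p = 0.0959). The markers given above for Dkk3 and Frzb moved in this comparison too, and their part in the Wnt4 value was not tested. In 3mTSCmKO the rapamycin difference was -0.06 (adjusted p = 0.859). Wnt4 and Dkk3 were thus both lower in TSCmKO muscle, but their values with rapamycin at 9 months went in opposite directions.

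Wnt9a, a ligand known from joint and bone development, varied little across groups. Its group means lay between 12.4 CPM in 9mTSCmKO and 15.7 CPM in 3mTSCmKO. The log2 fold change of TSCmKO over CON was 0.29 ± 0.12 at 3 months, where the libraries were at 13.0, 12.2, 14.7, 12.7 and 11.3 CPM in 3mCON and 14.2, 15.6, 15.5, 15.8 and 17.2 CPM in 3mTSCmKO, and it was -0.00 at 9 months. From 3 to 9 months in TSCmKO it was -0.34 ± 0.12, but -0.04 ± 0.16 with insert size as a term and -0.23 without 9mTSCmKO replicate 1. With rapamycin the difference was 0.28 ± 0.12 in 9mTSCmKO (adjusted p = 0.073) and -0.18 in 3mTSCmKO (adjusted p = 0.304), neither past the threshold.

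Rspo3, an R-spondin that strengthens Wnt signaling, was lower in TSCmKO muscle at 3 months. It was at 4.31, 3.37, 2.48, 3.33 and 2.87 CPM in 3mCON and at 2.04, 0.588, 1.59, 1.12 and 1.55 CPM in 3mTSCmKO. The groups did not overlap, and the log2 fold change was -1.25 ± 0.23. At 9 months it was at 4.37, 3.85, 3.25, 3.99 and 3.20 CPM in 9mCON and at 2.65, 2.53, 3.74, 3.35 and 2.14 CPM in 9mTSCmKO, with overlap (-0.38 ± 0.21). Under rapamycin it did not differ between genotypes past the threshold, in the younger mice (-0.51, adjusted p = 0.152) or the older ones (-0.58 ± 0.22, adjusted p = 0.0617), although the latter passed without 9mCON+RM replicate 2 (-0.66, adjusted p = 0.0432) and with DESeq2 (-0.58, adjusted p = 0.0455). The rapamycin difference in 3mTSCmKO was 0.58 ± 0.23 (adjusted p = 0.0585), which passed without 3mTSCmKO replicate 1 (0.74, adjusted p = 0.0205) or 3mTSCmKO+RM replicate 5 (0.67, adjusted p = 0.0403), and with upper-quartile scaling (adjusted p = 0.039), DESeq2 (0.0437) or limma on log2(TPM + 0.1) (0.0278).

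Axin2, the scaffold of the beta-catenin destruction complex whose own transcription beta-catenin switches on, was higher in TSCmKO than in CON under vehicle and fell with rapamycin in young TSCmKO muscle. It was at 12.4, 11.4, 11.9, 9.70 and 9.46 CPM in 3mCON and at 14.3, 15.6, 16.7, 12.4 and 18.4 CPM in 3mTSCmKO. At 9 months it was at 7.68, 8.75, 6.82, 8.13 and 12.03 CPM in 9mCON and at 11.3, 13.8, 10.2, 13.3 and 12.5 CPM in 9mTSCmKO. The log2 fold changes were alike at both ages, 0.50 ± 0.13 at 3 months and 0.49 ± 0.13 at 9 months, with 1 CON library inside the TSCmKO range in each case. In 3mTSCmKO+RM Axin2 was at 10.3, 9.45, 7.50, 10.4 and 11.1 CPM, below every library of 3mTSCmKO (-0.67 ± 0.13, adjusted p = 0.000166). Between these groups 4 of 11 muscle fiber, 3 of 15 fibroblast, 2 of 11 tenocyte and 2 of 9 macrophage markers rose with rapamycin. In the same lists 1 muscle fiber and 1 fibroblast marker fell. The part of these markers in the Axin2 value was not tested. In 9mTSCmKO+RM it was at 12.9, 10.8, 12.9, 12.1 and 11.7 CPM and did not differ from 9mTSCmKO past the threshold (-0.02, adjusted p = 0.935). The 3mCON+RM libraries were at 9.60, 7.90, 9.44, 9.49 and 9.78 CPM of Axin2 and overlapped with 3mCON. The rapamycin difference of Axin2 was -0.25 ± 0.13 in 3mCON (adjusted p = 0.623) and 0.16 ± 0.13 in 9mCON (0.518). Neither passed the threshold. Young TSCmKO and CON muscle were not shown to differ in this response (interaction -0.42 ± 0.19, adjusted p = 0.256). Under rapamycin the genotype difference did not pass the test in the younger mice (0.07, adjusted p = 0.836) or the older ones (0.31 ± 0.13, adjusted p = 0.0953), although the latter passed without 9mCON+RM replicate 2 (0.40, adjusted p = 0.036) and with limma on log2(TPM + 1) (adjusted p = 0.0488) or log2(TPM + 0.1) (0.0497).

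**Figure D2:**
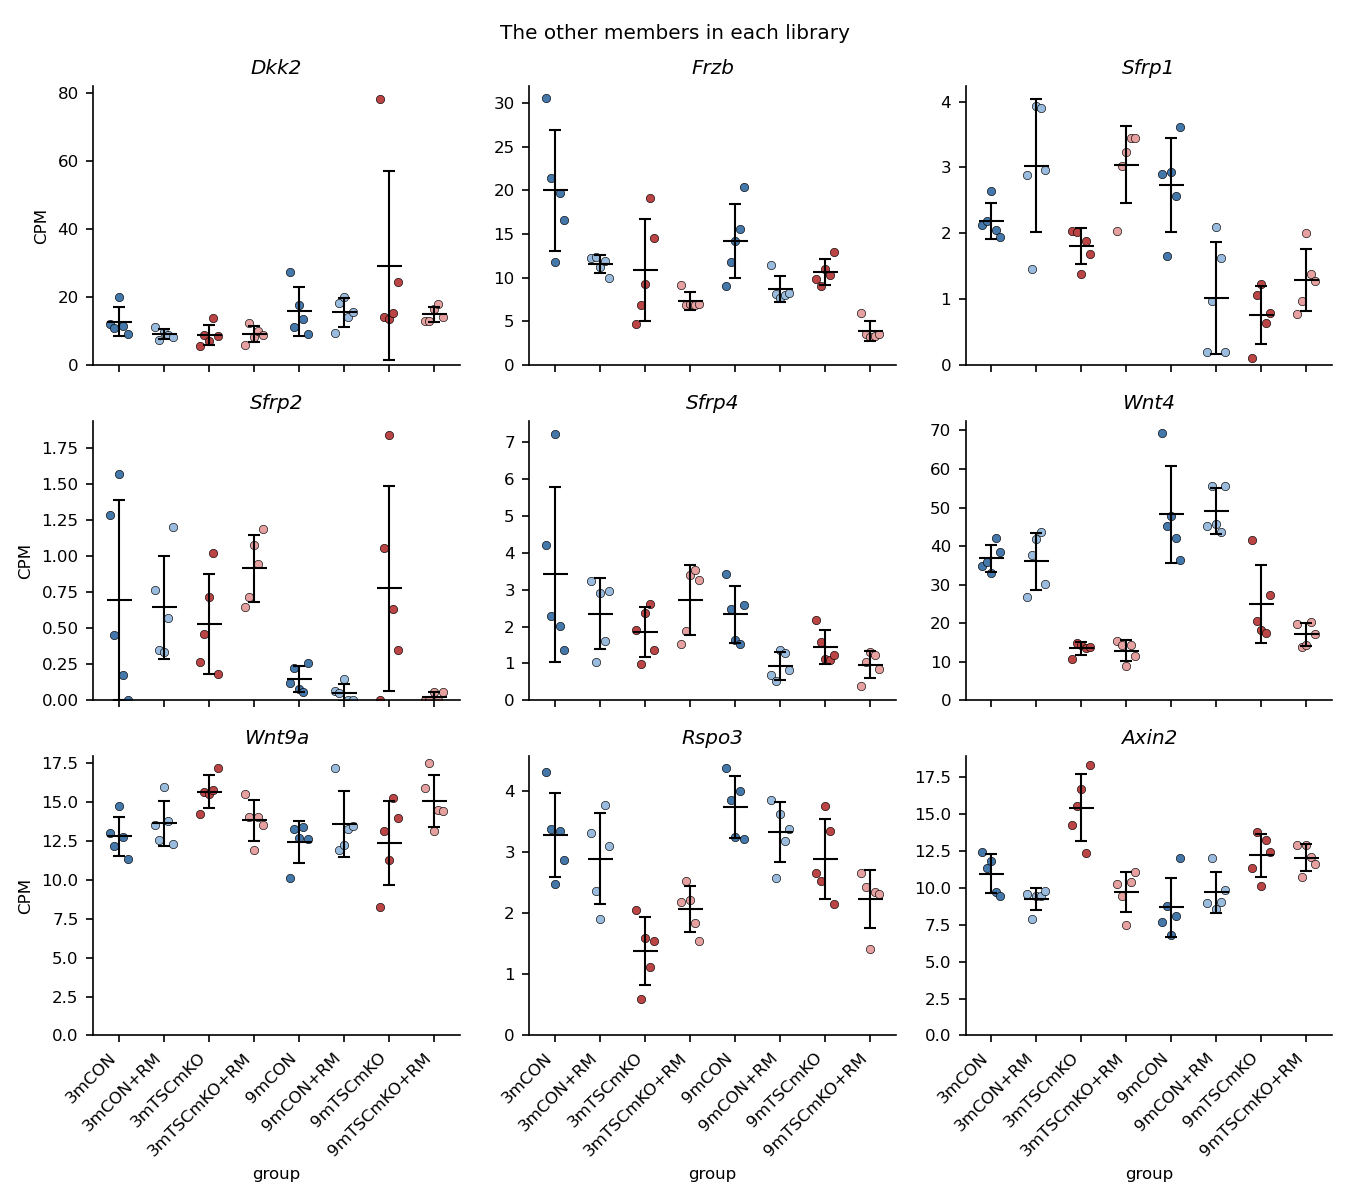
Level in CPM (linear axes from 0) of the other 9 genes in each of the 40 libraries, by group, with the mean ± SD of 5 libraries; error bars of Sfrp2 stop at 0. Wnt4 has a lower mean in every TSCmKO group than in the CON group of the same age and treatment, 1 library of 9mTSCmKO stands at 78.3 CPM of Dkk2, and Sfrp2 lies near 0 in 9mCON+RM and 9mTSCmKO+RM.

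The number of the 10 genes past the threshold is given beside the share of all genes that passed. Between genotypes at 9 months, 6 of the 10 passed (Axin2, Dkk2 and Sfrp2 higher, Dkk3, Sfrp1 and Wnt4 lower) where 37.9% of all 13543 genes tested did. At 3 months, 5 passed (Axin2 higher, Dkk3, Frzb, Rspo3 and Wnt4 lower) against 19.8%. Between ages, Dkk3 alone passed in CON, against 1.02% of all genes, and 7 of the 10 passed in TSCmKO (Dkk2, Rspo3 and Wnt4 higher, Axin2, Dkk3, Sfrp1 and Wnt9a lower at 9 months), against 37.4%. With insert size as a term, 1 of the 10 passed between ages in TSCmKO. These comparisons of vehicle-treated mice are those assumed to have chosen the genes, so nothing is read from their counts. The median log2 fold change of the 10 genes was -0.40 at 9 months and -0.69 at 3 months, beside -0.02 in both over all genes.

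Under rapamycin, 3 of the 10 genes differed between genotypes at 9 months (Dkk3, Frzb and Wnt4, all lower in TSCmKO+RM) where 20.6% of all genes did, and 2 at 3 months (Dkk3 and Wnt4, both lower) where 10% did. With rapamycin in 9mTSCmKO, 5 of the 10 passed (Dkk3 higher, Dkk2, Frzb, Sfrp2 and Wnt4 lower) against 32.6%. In 3mTSCmKO 1 passed (Axin2, lower) against 23.6%, and in 9mCON 2 passed (Sfrp1 and Sfrp4, lower) against 11.8%. In 3mCON 0 passed by edgeR, with 1 (Frzb) at an unadjusted p under 0.05 and 0 by DESeq2, against 0.679%. Between ages in CON under rapamycin, 4 passed (Dkk3 higher, Sfrp1, Sfrp2 and Sfrp4 lower) against 14.6%. Of the interactions of rapamycin with genotype, 2 passed at 9 months (Dkk3 and Sfrp1) against 4.87%, and 0 at 3 months by edgeR and by DESeq2, with 3 at an unadjusted p under 0.05 (Axin2, Rspo3 and Sfrp4), against 3.45%. For the interaction of genotype with age in vehicle-treated mice, 1 passed (Dkk3) against 4.94%, and nothing is read from it. The comparisons of rapamycin within a genotype, and their interactions, share their vehicle groups with those comparisons, so nothing is read from their counts of Dkk3 either.

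**Figure D3:**
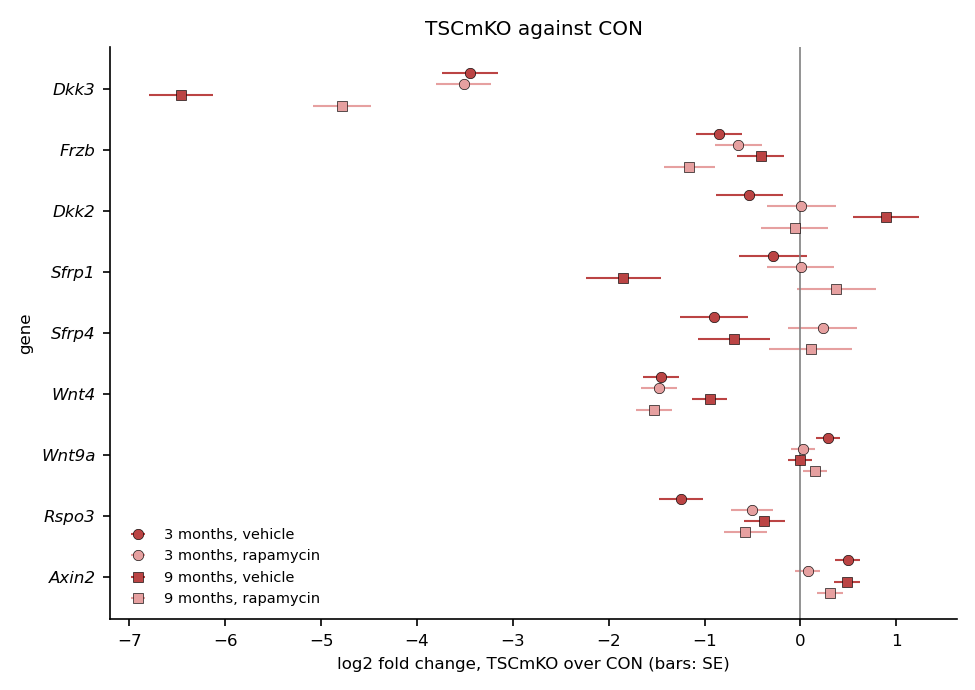
Log2 fold change of TSCmKO over CON with its SE for 9 genes, under vehicle and under rapamycin at 3 and 9 months; Sfrp2 is left out because its counts were at the floor in several groups. Dkk3 runs from -3.45 to -6.46 and Wnt4 from -0.95 to -1.53, while Sfrp1 is at -1.85 at 9 months under vehicle and at 0.38 under rapamycin.

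**Figure D4:**
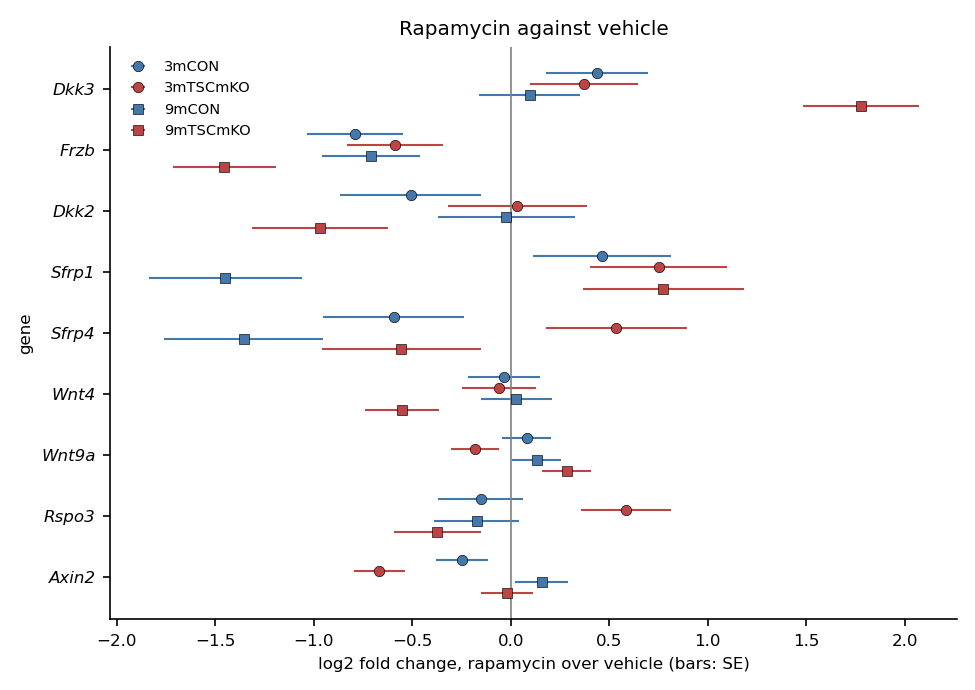
Log2 fold change of rapamycin over vehicle with its SE for the same 9 genes in 3mCON, 3mTSCmKO, 9mCON and 9mTSCmKO. Frzb is below 0 in all 4, Dkk3 stands at 1.78 in 9mTSCmKO and Axin2 at -0.67 in 3mTSCmKO.

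To compare levels between genes, TPM was used, which divides by transcript length. In 9mCON, Dkk3 had a mean of 194.7 TPM and ranked 2 among the Wnt pathway genes, after the beta-catenin gene Ctnnb1 (217.3 TPM), whereas in 9mTSCmKO it had 2.29 TPM and ranked 47. In 9mCON the other 9 genes were far lower, from 0.192 TPM (Sfrp2) to 20.5 TPM (Wnt4), whereas in 9mTSCmKO Dkk2 (14.7 TPM, or 8.61 TPM without replicate 1), Wnt4, Axin2, Frzb, Wnt9a and Rspo3 (2.62 TPM) were all above Dkk3. Summed over 14 genes of secreted inhibitors, the level was 235.0 ± 37.8 TPM (SD, n = 5) in 9mCON, of which Dkk3 made up 83.0% ± 2.34, and 39.3 ± 15.1 TPM in 9mTSCmKO, of which Dkk3 made up 6.36% ± 2.09. Without Dkk3 the sums were 40.3 ± 9.69 TPM and 37.0 ± 15.2 TPM, but the latter included 63.7 TPM in 9mTSCmKO replicate 1, and without that library it was 30.3 ± 3.15 TPM (n = 4). At 3 months the sums were 107.2 ± 16.8 TPM in 3mCON, with a Dkk3 share of 53.8%, and 33.9 ± 7.78 TPM in 3mTSCmKO, with a share of 16.8%. Without Dkk3 they were 49.0 ± 11.6 TPM and 28.7 ± 9.35 TPM, lower in 3mTSCmKO by more than the SD of either group. In 9mTSCmKO+RM the sum was 29.0 TPM and the Dkk3 share 26.6% ± 10.3. By this measure Dkk3 made up most of the summed RNA of the 14 genes in CON muscle at 9 months, but not in TSCmKO muscle. These shares and ranks under vehicle restate the values assumed to have chosen Dkk3, so they are a description. They do not measure Wnt inhibition, because the effect of Dkk3 on Wnt signaling depends on the setting.

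**Figure D5:**
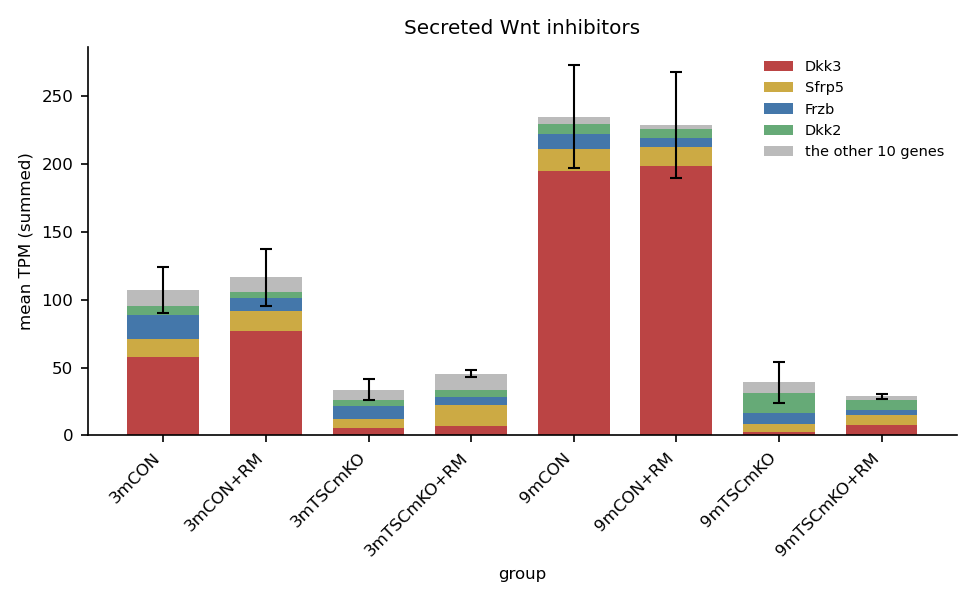
Mean TPM of secreted Wnt inhibitor genes, stacked by gene (Dkk3, Sfrp5, Frzb, Dkk2 and the other 10 of 14 genes) for each group; the error bar is the SD of the sum over 5 libraries. The Dkk3 segment makes up 83.0% of the bar of 9mCON and 6.36% of that of 9mTSCmKO.

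Of 89 other Wnt pathway genes listed, 83 were in the table and 58 were tested. Between genotypes at 9 months 6 were higher and 15 lower in TSCmKO (36.2% past the threshold, beside 37.9% of all genes; median log2 fold change -0.14). At 3 months 6 were higher and 6 lower (20.7%, beside 19.8%), and with rapamycin in 9mTSCmKO 9 rose and 6 fell (25.9%, beside 32.6%). Under rapamycin at 9 months 7 were higher and 10 lower in TSCmKO+RM (29.3%, beside 20.6%). Among 15 tested genes known as beta-catenin targets, in which Axin2 was not counted, 1 was higher and 5 lower in TSCmKO at 9 months (6 of 15, beside 37.9% of all genes), 2 higher and 3 lower at 3 months (5 of 15, beside 19.8%), and, under rapamycin at 9 months, 4 higher and 2 lower (6 of 15, beside 20.6%).

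The inhibitor gene Sfrp5 was lower in 9mTSCmKO (5.89 ± 2.92 CPM) than in 9mCON (17.2 ± 3.54 CPM; log2 fold change -1.55 ± 0.32, adjusted p = 0.000221). The R-spondin receptor gene Lgr6 was lower in 9mTSCmKO (0.47 against 1.81 CPM in 9mCON, -1.98 ± 0.44, adjusted p = 0.000448). It was also lower in 3mTSCmKO (0.48 against 3.48 CPM in 3mCON, -2.83 ± 0.42, adjusted p = 2.41e-06). Dact2, which encodes an inhibitor that binds Dishevelled, was lower in 9mTSCmKO (0.45 against 1.81 CPM in 9mCON, -1.959 ± 0.47, adjusted p = 0.00103). These levels were low. In 9mTSCmKO 11 of 15 fibroblast markers were also lower and 1 was higher, and their part was not tested. Among 23 tested genes of intracellular components, 3 were higher in 9mTSCmKO (Tcf7, Pygo1 and Pygo2) and 3 lower (Dvl1, Gsk3a and Tcf7l2), of which Pygo2, Gsk3a and Tcf7l2 are named after their values were seen. Tcf7 stood at 5.08 ± 1.18 CPM in 9mTSCmKO against 1.23 ± 0.31 CPM in 9mCON (2.03 ± 0.26, adjusted p = 6.98e-08) and was also higher at 3 months (1.60, adjusted p = 2.18e-05), and Pygo1 was higher at both ages (0.91 ± 0.19, adjusted p = 0.000166 for 9mTSCmKO and 1.08 ± 0.19, adjusted p = 3.11e-05 for 3mTSCmKO). At 3 months Apcdd1, a beta-catenin target gene that encodes a Wnt inhibitor, was also higher (1.23, adjusted p = 0.00127, and 0.0611 in a fit of only the groups compared). The target genes Myc (-1.28, adjusted p = 0.00118) and Lgr5 (0.88 against 1.79 CPM in 3mCON, -1.004, adjusted p = 0.00697) were lower.

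With rapamycin in 9mTSCmKO, Tcf7 fell (-1.10 ± 0.25, adjusted p = 0.000672), as did the genes of the secreted inhibitor Wif1 (from 3.78 to 0.49 CPM, -2.90 ± 0.71, adjusted p = 0.00174) and of the intracellular inhibitor Nkd2 (-1.10 ± 0.24, adjusted p = 0.000519). Fst (1.60 ± 0.27, adjusted p = 1.95e-05), which encodes the activin and myostatin binder follistatin, Myc (1.48 ± 0.28, adjusted p = 9.91e-05) and the Dishevelled gene Dvl1 (0.68 ± 0.10, adjusted p = 1.63e-06) rose. Wif1 was higher in 9mTSCmKO than in 9mCON (1.66 ± 0.62, adjusted p = 0.0329), a call that was lost without 9mCON replicate 1 (adjusted p = 0.0655), 2 (0.0749), 3 (0.0745) or 4 (0.0858) or 9mTSCmKO replicate 2 (0.0561) or 3 (0.0799), without a filter (0.06) and in a fit of only the groups compared (0.0557). Without 9mCON replicate 5 the Wif1 value was 2.996 (adjusted p = 0.000926). Across age in CON the co-receptor gene Lrp6 was the single listed gene that passed, lower at 9 months (-0.65 ± 0.15, adjusted p = 0.0218). This call was lost with insert size as a term (adjusted p = 0.121) and in a fit of only the groups compared (0.155). It was also lost without 3mCON replicate 1 (adjusted p = 0.0707) or 2 (0.0807) or 9mCON replicate 1 (0.0693) or 2 (0.0962).

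The pattern of Dkk3 over the 40 libraries was compared with that of 9638 other genes by the Pearson correlation of log2 CPM, given as a description because the libraries share the same 8 groups. The closest were Rxrg (r = 0.946), which encodes a retinoid X receptor, Gdap1 (0.934), which encodes a mitochondrial outer membrane protein, Egflam (0.931), which encodes the matrix protein pikachurin, Aurka (0.924), a mitotic kinase gene, and Msrb3 (0.921), a methionine sulfoxide reductase gene. Rxrg had group means of 61.3 CPM in 3mCON, 27.5 CPM in 3mTSCmKO, 79.4 CPM in 9mCON and 25.7 CPM in 9mTSCmKO, a far smaller range than Dkk3. Among the most opposed were Slc35f5 (-0.931), a solute carrier gene, and Atp2a2 (-0.926), the calcium pump gene of slow fibers. Atp2a2 stood at 42.4 CPM in 9mCON and 711.2 CPM in 9mTSCmKO, and Slc35f5 at 17.9 and 72.7 CPM in the same groups.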

How the data were processed

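Poly(A) RNA of 40 EDL muscles was sequenced by the authors in directional single-end libraries. They trimmed reads with Cutadapt 1.9.1, aligned them with kallisto 0.43.1 to protein-coding Ensembl transcripts of GRCm38, divided reads with several hits equally and summed per gene. The deposited tables hold estimated counts (whole numbers, not normalized) and TPM, computed by the authors.

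Tests used edgeR 4.0.16 (R 4.3.3) and the counts of 13543 of 22844 genes reaching 1 CPM in 5 or more libraries (at least 99.8% of counts): TMM scaling, 1 robust quasi-likelihood fit of 8 group means to 40 libraries, two-sided F-tests, Benjamini-Hochberg adjustment over all genes tested and a threshold of 0.05. CPM values are TMM-scaled. SEs of log2 fold changes derive from the F-statistics. Each of the 8 groups, taken from the labels, had 5 mice. Sequences came from RefSeq on GRCm38.p6 and positions from GENCODE M21. The test was checked on simulated data.

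Members and lists were chosen with earlier results of these data known. Named genes were the 10 members, Tsc1, the 3 largest called rises and falls among the other listed Wnt genes (mean at least 1 CPM) in 4 comparisons, and the 5 genes most and 3 least like Dkk3 (mean at least 5 CPM), of which not all are reported here. Alternatives used upper-quartile or DESeq2 1.42.0 size factors, DESeq2 itself, limma 3.58.1 on log2(TPM + 1) or log2(TPM + 0.1), no filter or 5 CPM, insert size, a replicate block, only the groups compared, and each library left out. No libraries were duplicates (correlation of replicates 0.934 to 0.992).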

Additional observations from a re-analysis of the deposited data

Results flagged for a closer look

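In 80 sets of 5 libraries (10 genes in 8 groups), 10 held a library whose gap to the nearest other one exceeded Dixon's critical share of 0.71 of the range; chance gives about 1 in 20. Dkk3 was lowest in 3mCON replicate 3 (53.25 CPM, others 110.7 to 127.2 CPM) and highest in 3mCON+RM replicate 2 (234.6 CPM, others 101.3 to 138.5 CPM). Dkk2 was highest in 3mCON replicate 3 (20.2 CPM, others 9.04 to 12.2 CPM) and in 9mTSCmKO replicate 1 (78.29 CPM, others 13.7 to 24.4 CPM). Frzb was highest in replicate 1 of 3mTSCmKO+RM (9.179 CPM, others 6.87 to 6.997 CPM), of 9mCON+RM (11.42 CPM, others 7.74 to 8.30 CPM) and of 9mTSCmKO+RM (6.025 CPM, others 3.21 to 3.60 CPM). Wnt9a was lowest in 9mCON replicate 1 (10.1 CPM, others 12.6 to 13.4 CPM), Rspo3 in 9mTSCmKO+RM replicate 3 (1.414 CPM, others 2.32 to 2.66 CPM) and Axin2 in 3mCON+RM replicate 2 (7.898 CPM, others 9.44 to 9.78 CPM).

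Effects of the same contrast differed between groups in 3 cases. The genotype difference of Dkk3 was larger at 9 than at 3 months (interaction -3.01 on the log2 scale), a description of the vehicle libraries assumed to have chosen Dkk3. The rapamycin difference of Dkk3 at 9 months was 1.78 in TSCmKO and 0.10 in CON (interaction 1.68), given without a p because it draws on the same vehicle libraries. The response of Sfrp1 at 9 months also differed (interaction 2.23, adjusted p = 0.0153, edgeR), with a fall in CON (-1.45) and 0.77 in TSCmKO.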

How the results depend on the processing

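Of 2486 refits of 118 log2 fold changes, 2365 kept direction and side of the threshold, 82 lost the call, 36 gained it and 3 reversed. The reversed values were those of Sfrp2, which is near the floor: 0.0552 between genotypes at 3 months with limma on log2(TPM + 0.1), 0.19 there without 3mCON replicate 3 (range -0.85 to 0.19 with each library left out), and -0.14 between ages in TSCmKO without 9mTSCmKO replicate 3 (range -0.14 to 0.93). All 39 called changes of the 10 genes, those described without a test among them, kept their direction in every refit, and 21 kept their call in every one, from which nothing is read for the vehicle comparisons. For Dkk3, the differences tested in rapamycin-treated mice (genotype at both ages, age in CON+RM) kept their calls in every refit. Sfrp1 lost its calls with rapamycin in 9mCON (adjusted p = 0.11, edgeR) and for the interaction at 9 months (2.21, adjusted p = 0.127, edgeR) in a fit of only the groups compared.

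Counts of the 10 genes called moved by over 1.5 times as follows. In a fit of only the groups compared they were 3 between genotypes at 9 months, and with rapamycin 2 in 9mTSCmKO, 2 in 3mTSCmKO, 1 in 9mCON and 1 for the interaction at 9 months. With insert size as a term they were 1 between ages in TSCmKO and 2 between ages in CON+RM. With the filter at 5 CPM they were 1 with rapamycin in 9mCON, 1 between ages in CON+RM and 1 for the interaction at 9 months. With rapamycin in 3mTSCmKO they were also 2 with upper-quartile scaling, with limma on log2(TPM + 0.1), with DESeq2 and with the replicate block. DESeq2 called 3 for the interaction of genotype with age. Of the 58 other Wnt genes, 11 were called between genotypes at 9 months in a fit of only the groups compared and 13 with limma. The replicate numbers did not pair the mice (in 0 of 28 pairs of groups did every same-numbered pair correlate above 0.1; range -0.363 to 0.412), and 37 of the 39 calls held under the replicate block (those of Dkk2 between genotypes at 9 months and with rapamycin in 9mTSCmKO were lost, and that of Rspo3 with rapamycin in 3mTSCmKO was gained, adjusted p = 0.0487 by edgeR).

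With each library left out, the counts ran from 5 to 6 (genotype at 9 months), 4 to 6 (genotype at 3 months), 1 to 2 (age in CON), 5 to 7 (age in TSCmKO), 3 to 6 (rapamycin in 9mTSCmKO), 1 to 3 (in 3mTSCmKO and in 9mCON), 0 to 0 (in 3mCON), 3 to 5 and 2 to 2 (genotype under rapamycin at 9 and 3 months), 3 to 4 (age in CON+RM), 1 to 2 (genotype by age), 2 to 2 and 0 to 0 (interactions of rapamycin at 9 and 3 months), 14 to 21 (other Wnt genes, genotype at 9 months) and 12 to 18 (with rapamycin in 9mTSCmKO). Over all genes, a fit of only the groups compared changed the calls from 5133 to 2647 (genotype at 9 months), 138 to 30 (age in CON), 5064 to 3324 (age in TSCmKO), 4410 to 2544, 1604 to 554 and 92 to 419 (rapamycin in 9mTSCmKO, 9mCON and 3mCON), 1359 to 2495 (genotype under rapamycin at 3 months), 669 to 312 (genotype by age), and 660 to 209 and 467 to 1194 (interactions of rapamycin at 9 and 3 months). Insert size as a term left 25 (age in CON) and 1702 (age in TSCmKO). The count for age in CON was also 83 without a filter, 375 with DESeq2 and 215 with limma on log2(TPM + 1), that for rapamycin in 3mCON 38 without a filter, 141 at 5 CPM and 181 with DESeq2, and that for the interaction at 9 months 435 without a filter. The share of higher calls with rapamycin in 3mTSCmKO moved from 44.9% to 55.7% with upper-quartile scaling. With the same limma fit it also moved from 50.3% to 61.6% (genotype at 9 months), 66.7% to 28.4% (age in CON), 41.3% to 12.4% (age in CON+RM), 42.5% to 30.8% (rapamycin in 9mCON), 54.8% to 77.02% and 56.5% to 67.1% (genotype under rapamycin at 9 and 3 months) and 60.8% to 85.0% (genotype by age), and the median of all genes shifted to -0.10 (age in CON) and -0.13 (age in CON+RM). Depth limits Sfrp2, Sfrp1 and Sfrp4 most.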
